A study of Mus musculus with 15 samples.

Results

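Expressed long intergenic non-coding RNAs (lincRNAs) were examined in a mouse model of tumor-derived blood vessel cells. The count table carried 4253 genes of the biotype lincRNA besides H19 and Meg3, which were left out. A lincRNA was taken as expressed when its mean level reached 5 CPM (a gene's reads scaled to the same total in every library) in at least 1 of 5 groups of 3 libraries, and 246 genes met this rule among 49585 genes in all. The line called 005 is a mouse glioma stem cell line that was kept in stem cell medium without serum. Tumor-derived endothelial cells (TDECs) were grown from 005 in EGM-2 endothelial medium at 1% oxygen and were collected on day 2 (TDEC day 2) or without a day in their label (taken as TDEC day 5). A further group was given 5 µM sertraline, an antidepressant, at 5 days of differentiation and collected 24 hours later (TDEC sertraline). The untreated TDECs carried no day in their label, so drug and time of collection cannot be told apart between treated and untreated TDECs. Mouse brain microvascular endothelial cells (MBMECs) were purchased normal cells kept in a medium with serum. All groups carried the strain C57BL/6 in their labels. The TDECs and 005 came from 1 cell line, medium and oxygen changed together with differentiation, and no oxygen level was given for 005 or MBMECs, so these factors cannot be told apart.

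LincRNAs are transcribed, and often spliced and polyadenylated, like messenger RNAs but are not thought to be translated, and most lie between coding genes. Some act in the nucleus, as Malat1 does in nuclear speckles and Neat1 as the scaffold of paraspeckles. Others are mainly known as the transcripts from which microRNAs (miRNAs) or small nucleolar RNAs (snoRNAs) are cut, and miR-9, for example, is a miRNA of neural progenitors. Many lincRNAs are found in few cell types, so that they mark cell identity, but for most the function is not known. Of the 246 lincRNAs, 221 had only clone or predicted names.

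Since levels chose the members, the levels are a description. The members just inside the limit were Gm26538 at 5.03 CPM in 005 and Gm13387 at 5.05 CPM in MBMECs, and the lincRNAs just outside it were C030037D09Rik at 4.90 CPM on TDEC day 2 and Gm17529 at 4.88 CPM in TDEC sertraline. Of the members, 157 reached 10 CPM and 19 reached 100 CPM in a group, and the median of the highest group mean was 14.2 CPM. The limit was met in all 5 groups by 100 members and in 1 group by 70. Members were highest in 005 in 76 cases, on TDEC day 2 in 35, on TDEC day 5 in 35, in TDEC sertraline in 35 and in MBMECs in 65. Together they held 0.979% ± 0.0722 of the counts in 005, 0.744% ± 0.0233 on TDEC day 2, 1.10% ± 0.0124 on TDEC day 5, 0.846% ± 0.0140 in TDEC sertraline and 0.714% ± 0.0385 in MBMECs (SD, n = 3 each). The 10 most abundant members made up 53.5% to 69.1% of this in the 5 groups, and Malat1 alone 31.3% on TDEC day 5.

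Total counts lay between 11283680 and 17093061 per library. Replicate 3 of 005, replicate 3 of TDEC day 2 and replicate 2 of TDEC sertraline stood apart from the others of their group, at a chi-square per gene of 6.97 to 11.7 against 2.15 to 2.50 for the remaining pair, where counting error gives about 1. The labels do not say for 005, TDEC day 2 and MBMECs whether the libraries came from separate cultures, and p-values then measure only the spread between these samples. The 8 endothelial markers fixed for this check summed to 4.47 to 7.02 CPM in 005, 42.8 to 49.7 CPM on TDEC day 5 and 6280 to 6470 CPM in MBMECs. Cdh5, which encodes VE-cadherin, was at 0.0812 CPM on TDEC day 5 and 1995 CPM in MBMECs, and Tie1 had no count on TDEC day 5. The defining endothelial markers were therefore near 0 in TDECs, apart from Flt1 at 40.4 CPM and Kdr at 3.92 CPM. The 5 neural and glioma stem markers summed to 2230 to 2480 CPM in 005, 1260 to 1310 CPM on TDEC day 5 and 232 to 236 CPM in MBMECs. In MBMECs Nes made up 224.5 CPM and Prom1 9.61 CPM, and Sox2, Olig2 and Fabp7 were at 0. Unlike the sum, Prom1 rose from 27.7 CPM in 005 to 109 CPM on TDEC day 5. The 5 fibroblast and mural markers summed to 14.7 to 17.8 CPM with sertraline, against 2.18 to 7.05 CPM elsewhere, and the 4 macrophage and leukocyte markers to 12.6 to 38.2 CPM in 005 and its descendants and 95.3 to 109 CPM in MBMECs, of which Cd68 made up 92.6 CPM. Their part in the results was not tested. In bulk RNA, fewer cells with a transcript and less of it per cell cannot be told apart.

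The label "intergenic" did not hold for many members at the level of single bases. Exons of GENCODE M21, which uses the genome build of the table, were available for 244 of the 246 genes. In 130 members at least 1 exon base lay on an exon of a coding gene of the opposite strand, and a median of 31.8% of their exon bases did so. At least 95% of the exon bases were covered in 23 members. Another 111 members shared no base with a coding exon, 3 (RP23-162P10.8, Gm38399 and 1300002E11Rik) shared bases with a coding gene of their own strand, and 2 (Gm28933 and A830039N20Rik) were not in M21. M21 itself listed 204 of them as lincRNA, 30 as antisense, 4 as bidirectional promoter RNAs, 3 as processed transcripts, 2 as transcribed pseudogenes and 1 (Gm11549) as coding. This split was made after the values had been seen.

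The levels of most overlapping members followed those of the coding genes beneath them. Gm26694 (chr17:25794894-25964784, plus strand), with 96.7% of its exon bases on exons of Metrn, a secreted factor of glia and neurons, was at 185, 449, 357, 292 and 30.7 CPM in 005, TDEC day 2, TDEC day 5, TDEC sertraline and MBMECs, and Metrn was at 191, 463, 380, 306 and 29.4 CPM. Gm26762 was at 149, 342, 921, 555 and 135 CPM, and Gpi1, the glycolytic enzyme glucose-6-phosphate isomerase beneath 14% of it, was at 630, 1494, 4028, 2585 and 527 CPM. 1810014B01Rik rose from 276 to 743 CPM between 005 and TDEC day 5, and Hsp90b1, an endoplasmic reticulum chaperone, from 782 to 2142 CPM. Gm16548, at 99.7 CPM in MBMECs and at most 0.0277 CPM elsewhere, lay on Selp, which encodes P-selectin, at 388 CPM in MBMECs and at most 0.449 CPM elsewhere. The ratio of member to coding gene could be formed in at least 2 groups for 125 members, and it varied by less than 1.5-fold over the groups in 90 and by less than 2-fold in 114. The median range was 1.25-fold for the ratio and 2.30-fold for the members themselves.

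The same could be seen in the fitted changes. Changes are log2 fold changes from edgeR's quasi-likelihood test over all genes, and a gene was called at an adjusted p under 0.05 if it also changed more than 2-fold. Of the overlapping members called between TDEC day 5 and 005, 25 of 35 had a coding partner called in the same direction and 0 in the opposite direction, and between TDEC day 5 and MBMECs this held for 49 of 54 and 0. For other members and their nearest coding gene the counts were 3 of 23 and 22 of 59, with 1 and 9 in the opposite direction, and coding genes at the same level shared the call with their nearest coding gene in 20.4% and 35.2% of cases. The library kit kept strand, but whether reads were counted by strand is not given in the sources used here. On the bases that such a member shares with its partner, the reads of the 2 can therefore not be told apart. Some members were far above their partner, as Snhg6 at 148 CPM on TDEC day 5 with Mcmdc2 at 1.76 CPM. The sections below turn mainly on members that share no base with a coding exon. Of the 116 members without an opposite-strand coding exon, 33 lay on an opposite-strand exon of a non-coding gene, where the same limit holds.

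**Figure D1:**
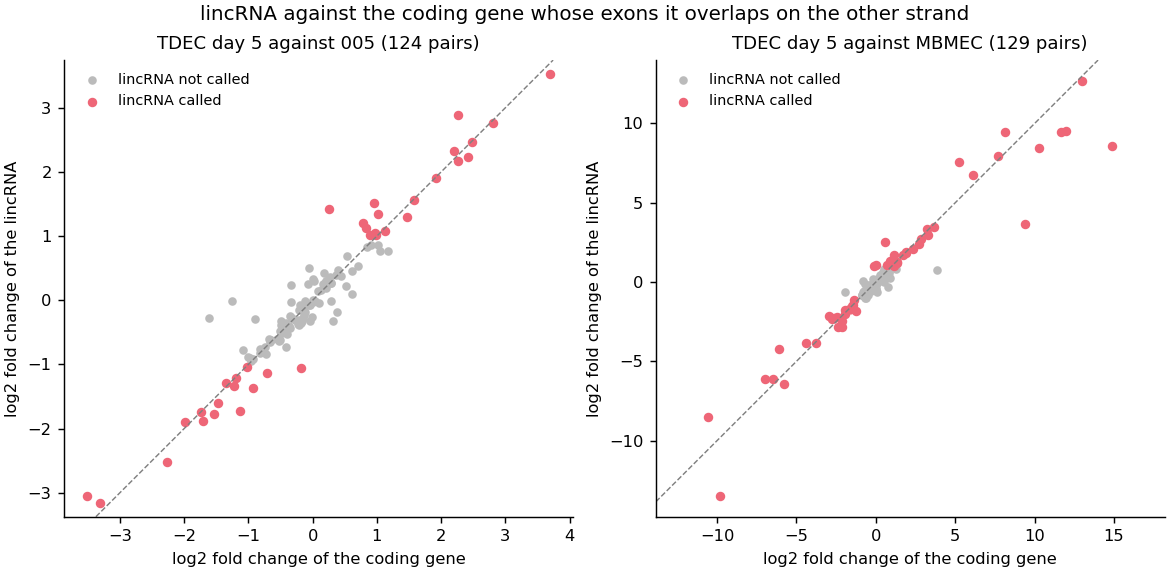
Log2 fold change of each overlapping lincRNA (vertical) against that of the coding gene beneath it (horizontal), for 124 pairs between TDEC day 5 and 005 (left) and 129 pairs between TDEC day 5 and MBMEC (right), where red points are lincRNAs that were called and the dashed line marks equal change. Most points lie along the line, with a median distance of 0.105 and 0.166 on the log2 scale, and changes against a group without counts depend on the prior count of the fit.

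Across all members, 17 were higher and 23 lower on TDEC day 2 than in 005, of 221 tested. This is 18.1% called, where 9.83% of all genes tested (5.35% higher and 4.48% lower) and 8.72% of genes at the same level were called. TDEC day 5 against 005 gave 31 higher and 34 lower of 225 (28.9%, against 23.5% of all genes, with 13.1% higher and 10.4% lower, and 20.9% at the same level). TDEC day 5 against TDEC day 2 gave 30 higher and 19 lower of 227 (21.6%, against 20.5%, with 11.1% higher and 9.35% lower, and 17.9%). TDEC day 5 against MBMEC gave 72 higher and 57 lower of 246 (52.4%, against 48.9%, with 28.1% higher and 20.8% lower, and 45.7%). TDEC sertraline against TDEC day 5 gave 1 higher and 9 lower of 226 (4.42%, against 5.08%, with 1.82% higher and 3.26% lower, and 2.94%). The count of 1 was 3 without replicate 2 of TDEC sertraline, 3 without replicate 2 and 2 without replicate 3 of TDEC day 5. At an adjusted p under 0.05 with no fold limit, 35 members were higher and 70 lower on TDEC day 2 than in 005, where 18.8% and 20.2% of all genes tested were. The counts were 71 and 85 for TDEC day 5 against 005 (32.4% and 33% of all genes), 71 and 61 between the 2 days (31% and 31.9%), 108 and 91 against MBMECs (45.7% and 40.2%) and 33 and 51 with sertraline (17.6% and 17.7%). A member chosen by its level in a compared group is more likely to differ there. Among members that reached 5 CPM in a group outside the comparison, 14.9%, 23.6%, 20.7%, 43.8% and 3.40% were called in the 5 comparisons in this order, against 8.08%, 19.9%, 17.2%, 42.3% and 2.24% of all genes chosen in the same way. The median log2 fold change of the members was -0.15, -0.07, -0.06, 0.08 and -0.06, against -0.02, -0.01, 0.00, 0.09 and 0.00 over all genes tested. The comparisons share control libraries and are not independent of each other.

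**Figure D2:**
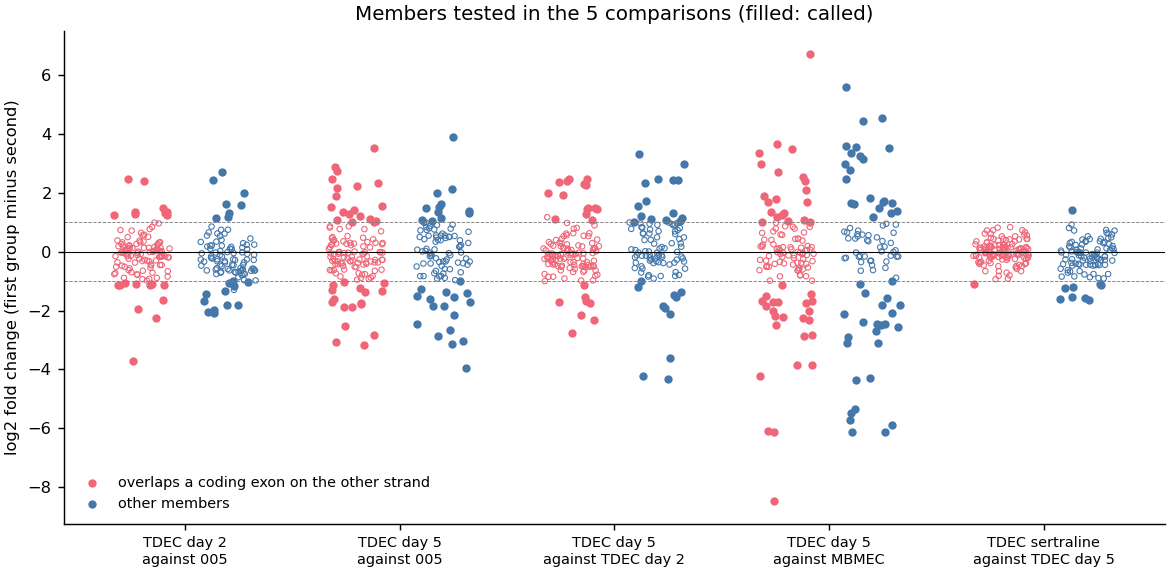
Log2 fold change (first group minus second) of the members tested in the 5 comparisons, split by overlap with a coding exon on the other strand, where filled points were called and dashed lines mark a 2-fold change. The 37 members with 3 or fewer counts in a group between TDEC day 5 and MBMEC are left out, and the spread is widest there and narrowest for sertraline.

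Members without an opposite-strand coding exon were called in 20 of 102 (19.6%) on TDEC day 2 and 29 of 100 (29%) on TDEC day 5 against 005. The counts were 26 of 102 (25.5%) between the 2 days, 74 of 116 (63.8%) against MBMECs and 9 of 101 (8.91%) with sertraline. For overlapping members they were 20 of 119 (16.8%), 36 of 125 (28.8%), 23 of 125 (18.4%), 55 of 130 (42.3%) and 1 of 125 (0.8%). Over all genes tested 9.83%, 23.5%, 20.5%, 48.9% and 5.08% were called in these comparisons. Of genes at the same level 8.72%, 20.9%, 17.9%, 45.7% and 2.94% were.

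The nuclear lincRNAs included the most abundant member. Malat1 (chr19:5795690-5802672, minus strand), a nuclear speckle RNA, was at 1444, 1593 and 2123 CPM in 005, 720, 662 and 596 CPM on TDEC day 2, and 3237, 3573 and 3537 CPM on TDEC day 5. With sertraline it was at 1280, 1302 and 1142 CPM, and in MBMECs at 573, 472 and 402 CPM. TDEC day 5 was thus highest in every library, and no 2 groups overlapped. Malat1 fell by 1.32 (SE 0.12, adjusted p = 1.4e-05) from 005 to TDEC day 2 and rose by 2.44 (SE 0.07, adjusted p = 2.1e-10) from there to TDEC day 5. It fell by 1.55 (SE 0.06, adjusted p = 1.5e-11) with sertraline. Per kilobase of exon its level on TDEC day 5 was 494 CPM, against 2.22 CPM for Neat1.

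Neat1 (chr19:5824708-5845478, minus strand), the neighbour of Malat1 and the scaffold of paraspeckles, behaved otherwise. It was at 26.5, 31.0 and 24.9 CPM in 005, at 45.8, 45.5 and 46.7 CPM on TDEC day 5, and at 297, 372 and 318 CPM in MBMECs. All 3 MBMEC libraries were above all others, and TDEC day 5 was lower than MBMECs by 2.90 on the log2 scale (SE 0.07, adjusted p = 4.9e-25). With sertraline Neat1 was at 63.3, 79.2 and 61.4 CPM, above the 3 libraries of TDEC day 5 (0.49, SE 0.09, adjusted p = 3.8e-04), which is less than 2-fold.

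Ftx, an RNA of the X-inactivation center that also carries miR-421 and miR-374b, was at 11.3 CPM ± 2.27 on TDEC day 2 and 24.0 CPM ± 3.44 on TDEC day 5, with a change of 1.13 (adjusted p = 8.8e-05) that was 0.98 without replicate 3 of TDEC day 2. It was at 2.40 CPM in MBMECs. Miat, a nuclear RNA of neural and other cells, was at 9.56, 8.80 and 10.6 CPM in 005, 3.46, 3.09 and 2.57 CPM on TDEC day 5 and 1.18, 1.32 and 1.62 CPM with sertraline. It fell in both steps (-1.54 and -1.21, adjusted p = 9.1e-06 and 0.0021) and had no count in MBMECs, so that TDEC day 5 was at least 49.1-fold higher, with 3 counts over the 3 MBMEC libraries as the floor for such folds. Over the whole list of 14 nuclear and chromatin RNAs, 10 were tested, and 2 were higher and 2 lower on TDEC day 5 than in 005, with a median of -0.12. Besides Malat1 and Miat these were Firre, which organises nuclear domains, at 1.31 and Jpx, an activator of Xist, at -1.41. Of all genes tested between TDEC day 5 and 005, 13.1% were called higher and 10.4% lower.

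**Figure D3:**
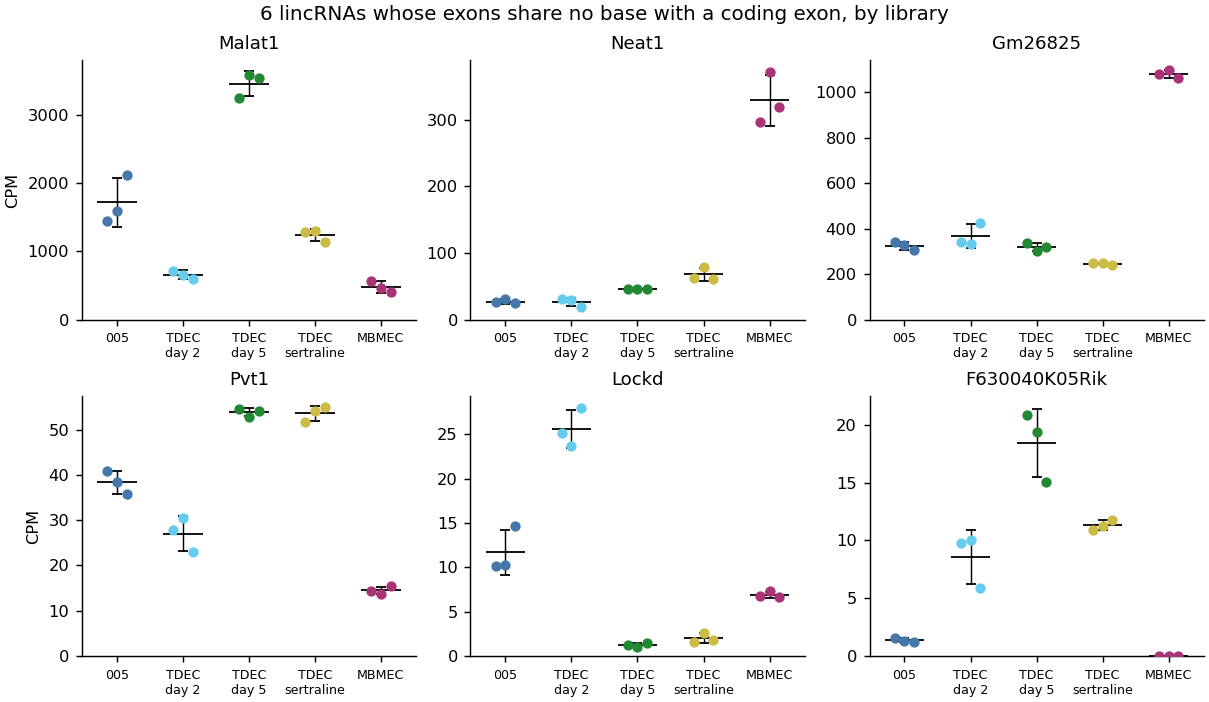
CPM of 6 lincRNAs without a shared coding exon in each library, with points for the 3 libraries of a group, a line at the mean and bars of 1 SD. Malat1 peaks on TDEC day 5 between 3237 and 3573 CPM, Neat1 and Gm26825 are highest in MBMECs, and Lockd is highest on TDEC day 2 between 23.7 and 28.0 CPM.

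The hosts of miRNAs are shown with the hairpins they carry, since 3 of them hold the same mature miRNA. Gm3764 (chr3:88206813-88229959), C130071C03Rik (chr13:83721381-83884194) and Mir9-3hg (chr7:79500026-79534403), all on the plus strand, span the hairpins of miR-9. The sequences are from RefSeq (GRCm38.p6), 5′ to 3′, and capitals mark the 5p and the 3p mature miRNA.
Mir9-1, in Gm3764, chr3:88215598-88215686, plus strand: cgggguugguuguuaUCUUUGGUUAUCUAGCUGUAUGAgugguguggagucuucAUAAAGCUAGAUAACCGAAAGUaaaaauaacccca
Mir9-2, in C130071C03Rik, chr13:83738814-83738885, plus strand: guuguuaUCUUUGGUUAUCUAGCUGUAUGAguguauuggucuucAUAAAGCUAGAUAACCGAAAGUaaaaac
Mir9-3, in Mir9-3hg, chr7:79505264-79505353, plus strand: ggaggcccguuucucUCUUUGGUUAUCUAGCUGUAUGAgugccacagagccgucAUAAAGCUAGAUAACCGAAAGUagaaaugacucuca
The hairpins differ in their loops and flanks but give 1 mature sequence for each arm, shown here with the seed (bases 2 to 8) in capitals.
mmu-miR-9-5p: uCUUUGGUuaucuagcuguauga
mmu-miR-9-3p: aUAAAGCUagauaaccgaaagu

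The 3 hosts had a common boundary but different courses. Gm3764 was at 436, 452 and 604 CPM in 005, 342, 359 and 355 CPM on TDEC day 5 and 321, 354 and 311 CPM with sertraline. C130071C03Rik was at 103, 99.6 and 103 CPM in 005, 121, 130 and 125 CPM on TDEC day 5 and 71.6, 70.4 and 77.9 CPM with sertraline. In MBMECs each of them had a count in 1 library only (0.0625 CPM), which gives a ratio to TDEC day 5 of 17170-fold for Gm3764 (95% counting interval 3081 to 678100) and of 6109-fold for C130071C03Rik (1096 to 241300).

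Mir9-3hg was the least abundant of the 3 and the only one of them that was called among 005 and its descendants. It was at 7.48, 8.25 and 9.20 CPM in 005, 3.33, 4.69 and 4.07 CPM on TDEC day 2 and 2.22, 2.44 and 3.29 CPM on TDEC day 5. With sertraline it was at 0.811, 0.660 and 1.33 CPM, and it had no count in MBMECs. It fell by 1.51 (SE 0.20, adjusted p = 2.7e-05) from 005 to TDEC day 5, and by 1.57 (SE 0.32, adjusted p = 0.0013) with sertraline. Gm35040, a lincRNA that starts 1640 bases past the end of Mir9-3hg on the same strand, was at 40.9, 41.2 and 32.9 CPM in 005, 6.91, 5.76 and 6.58 CPM on TDEC day 5 and 1.47, 2.49 and 2.58 CPM with sertraline. It too had no count in MBMECs. Its changes were -2.45 (adjusted p = 8.5e-09) and -1.62 (adjusted p = 3.5e-05), and its groups did not overlap either. C130071C03Rik changed with sertraline by -0.85 (adjusted p = 3.7e-08) and Gm3764 by -0.17 (adjusted p = 0.025), and the differences between the hosts were not tested.

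**Figure D4:**
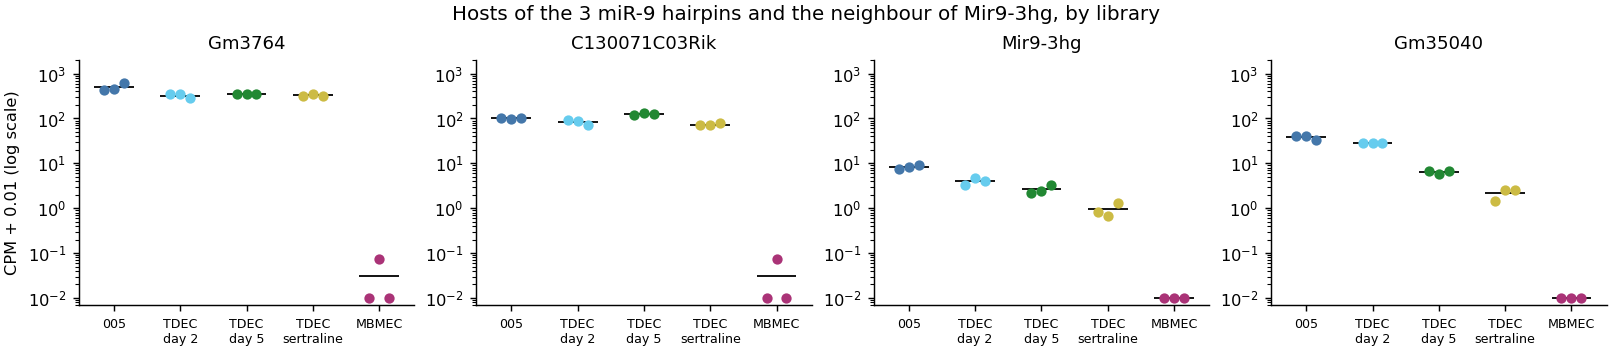
CPM plus 0.01 on a log axis for the 3 miR-9 host lincRNAs and for Gm35040, with points for each library and a line at the group mean. Gm3764 and C130071C03Rik stay within the same order of magnitude in 005 and TDECs, Mir9-3hg and Gm35040 step down to 0.660 to 1.33 and 1.47 to 2.58 CPM with sertraline, and MBMECs are at or near 0 in all 4.

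RefSeq promoter windows, from 250 bases before to 50 after a start, were at hand for 73 members. The windows of 2 miR-9 hosts are shown because both hold the cyclic AMP response element TGACGTCA, in capitals together with ACGTG (the core of the hypoxia response element), each searched on both strands. The window of C130071C03Rik, which carries Mir9-2, was searched too and held none of the motifs. The RefSeq start of Gm3764 lies 7669 bases inside the gene as the table has it.
Gm3764, GRCm38.p6, chr3:88214232-88214531, plus strand: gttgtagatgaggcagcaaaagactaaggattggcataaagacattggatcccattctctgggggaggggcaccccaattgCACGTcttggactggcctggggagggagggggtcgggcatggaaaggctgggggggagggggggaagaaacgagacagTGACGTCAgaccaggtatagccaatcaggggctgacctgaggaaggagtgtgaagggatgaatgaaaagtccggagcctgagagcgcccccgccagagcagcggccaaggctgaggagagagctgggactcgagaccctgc
Mir9-3hg, GRCm38.p6, chr7:79499776-79500075, plus strand: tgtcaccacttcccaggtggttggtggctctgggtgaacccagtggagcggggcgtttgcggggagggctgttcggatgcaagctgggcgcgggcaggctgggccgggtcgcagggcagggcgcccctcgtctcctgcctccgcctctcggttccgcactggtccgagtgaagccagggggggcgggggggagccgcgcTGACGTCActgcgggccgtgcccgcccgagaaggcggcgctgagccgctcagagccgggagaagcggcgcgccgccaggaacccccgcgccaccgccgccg
TGACGTCA was found in 4 of the 73 windows (5.48%) and in 1.79% of 32851 windows of all genes. ACGTG, which CACGTG contains, was found in 16 (21.9%) and in 19.6% of all. For the other motifs the shares were 2.74% and 5.20% for TGACTCA (AP-1), 2.74% and 0.895% for TTGCATCA (ATF4 with C/EBP), 2.74% and 7.15% for CACGTG (E-box) and 5.48% and 13.6% for TATAAA. The window of Malat1, the most abundant member, is shown for the same core and held ACGTG and none of the others.
Malat1, GRCm38.p6, chr19:5802623-5802922, minus strand: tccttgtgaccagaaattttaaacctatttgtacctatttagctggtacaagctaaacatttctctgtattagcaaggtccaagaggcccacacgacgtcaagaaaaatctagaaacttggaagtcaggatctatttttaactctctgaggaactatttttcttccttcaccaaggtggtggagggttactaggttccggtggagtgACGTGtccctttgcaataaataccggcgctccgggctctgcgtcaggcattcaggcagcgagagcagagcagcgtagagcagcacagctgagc

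Mir17hg (chr14:115042879-115046727, plus strand) carries the 6 hairpins of the miR-17-92 cluster, known as targets of MYC. Its mature miRNAs are shown for the arms that share a seed, in capitals.
mmu-miR-17-5p: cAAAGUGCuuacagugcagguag
mmu-miR-20a-5p: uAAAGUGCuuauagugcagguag
mmu-miR-19a-3p: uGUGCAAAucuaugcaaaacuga
mmu-miR-19b-3p: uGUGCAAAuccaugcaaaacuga
Mir17hg was at 8.94, 10.7 and 9.98 CPM in 005, 9.48, 15.2 and 10.8 CPM on TDEC day 5 and 3.74, 3.56 and 3.71 CPM in MBMECs. MBMECs lay below all other libraries, by 1.63 against TDEC day 5 (SE 0.17, adjusted p = 1.1e-09), and no call was made among 005 and TDECs. On TDEC day 2 its mean was 6.12 CPM, lower than in 005 (-0.62, adjusted p = 0.012). The rise from there to TDEC day 5 was 0.9967 (adjusted p = 9.9e-04), just under the fold limit. Mature miRNAs were not measured in these poly(A) libraries. On the list of 14 miRNA hosts 8 were tested between TDEC day 5 and 005, with 2 higher (Mir22hg and Mir99ahg) and 2 lower (Mir9-3hg and Mir124-2hg) and a median of -0.01. Of all genes tested 13.1% were called higher and 10.4% lower there. Mir124-2hg, the host of a neuronal miRNA, reached only 4.83 CPM in 005 and was not a member, and it was at 0.226 CPM on TDEC day 5 (-4.25).

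Several hosts of snoRNAs rose from TDEC day 2 to TDEC day 5. SnoRNAs guide the modification of ribosomal RNA, and the spliced hosts are short-lived RNAs that often begin like the messages of ribosomal proteins. Snhg12 (chr4:132308678-132311024, plus strand) was at 7.79, 6.44 and 8.81 CPM in 005, 3.95, 3.01 and 5.15 CPM on TDEC day 2 and 32.0, 33.8 and 27.4 CPM on TDEC day 5. All TDEC day 5 libraries were above all of the earlier ones, by 3.0 against TDEC day 2 (SE 0.17, adjusted p = 8.4e-08). Epb41l4aos was at 3.1, 2.57 and 2.99 CPM on TDEC day 2 and 28.3, 28.9 and 26.5 CPM on TDEC day 5, a rise of 3.32 (SE 0.13, adjusted p = 4.2e-09), after a fall of 1.81 from 005 (adjusted p = 3.0e-05). Snhg6 (chr1:9941959-9944118, minus strand) was at 34.2, 28.3 and 32.7 CPM and then at 137, 168 and 140 CPM, a rise of 2.27 (SE 0.10, adjusted p = 8.9e-09). Mcmdc2, on which 11.1% of its exon bases lie, did not exceed 1.76 CPM in any group. Snhg20 did not share this course, at 14.4 CPM ± 2.67 and 14 CPM ± 1.99 on the 2 days (0.01, adjusted p = 0.97).

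The list of 21 snoRNA hosts held genes of other biotypes as well, and 14 were tested. Between the 2 days 6 were higher (Gas5, Zfas1 and Snhg8 besides the 3 members) and 2 lower (Snhg3 and Snhg4), with a median of 0.78 where that of all genes was 0.00. Of all genes tested 11.1% were called higher and 9.35% lower in this comparison. Gas5, the most abundant, was at 87.2 CPM on TDEC day 2 and 344 CPM on TDEC day 5 (2.03, adjusted p = 3.8e-10). Against 005, TDEC day 2 had 1 host higher and 1 lower with a median of -0.36, and TDEC day 5 had 6 higher and 1 lower with a median of 0.73. The shares of all genes were 5.35% higher and 4.48% lower on TDEC day 2, and 13.1% and 10.4% on TDEC day 5. With sertraline the median was 0.05, and changes under 2-fold went both ways. Snhg6 (-0.42, adjusted p = 3.5e-04), Epb41l4aos (-0.47, adjusted p = 0.0011) and Gas5 (-0.25, adjusted p = 0.0053) were lower. Snhg4 (0.85, adjusted p = 0.0013), Snhg15 (0.52, adjusted p = 0.0083), Snhg1 (0.32, adjusted p = 0.0058) and Snhg5 (0.24, adjusted p = 0.015) were higher.

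**Figure D5:**
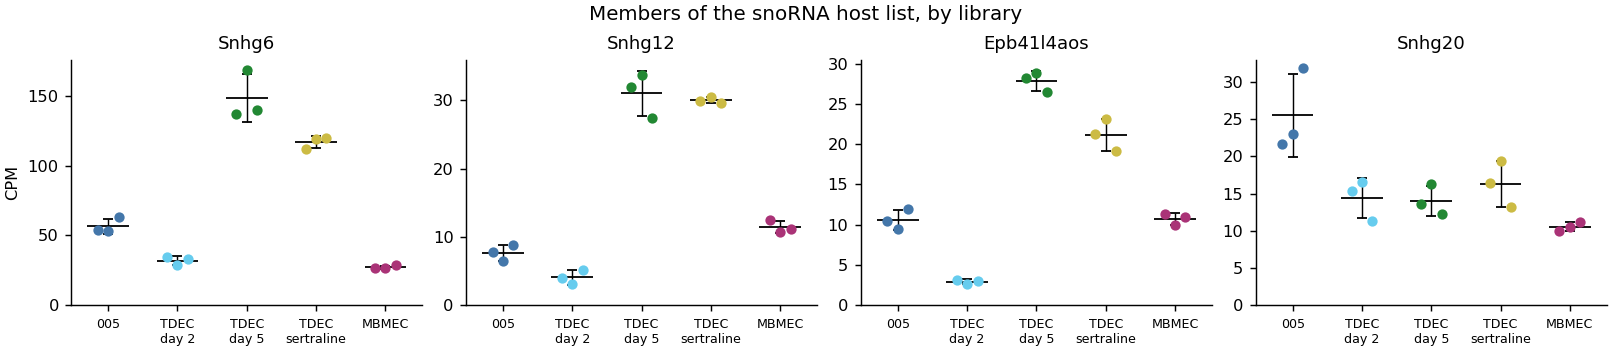
CPM of the 4 lincRNAs of the snoRNA host list in each library, with points for the 3 libraries of a group, a line at the mean and bars of 1 SD. By group mean, Snhg6, Snhg12 and Epb41l4aos are lowest on TDEC day 2 among 005 and TDECs and highest on TDEC day 5. Snhg12 is nearly as high with sertraline (30.02 CPM) as on TDEC day 5 (31.05 CPM), and Snhg20 is highest in 005 between 21.7 and 31.9 CPM.

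Lockd (chr6:134929092-134956798, plus strand), a lincRNA that begins 3579 bases from Cdkn1b, the gene of the cell cycle inhibitor p27, had the largest fall between the 2 days among the tested members without an opposite-strand coding exon. It was at 10.2, 10.3 and 14.7 CPM in 005, 25.1, 23.7 and 28.0 CPM on TDEC day 2 and 1.24, 0.974 and 1.45 CPM on TDEC day 5. TDEC day 2 was above and TDEC day 5 below every 005 library, with changes of 1.20 (SE 0.16, adjusted p = 1.6e-04) and then -4.33 (SE 0.18, adjusted p = 4.8e-09). Cdkn1b itself was at 147, 216 and 216 CPM, a change of 0.05 between the 2 days. Gm44238, which shares 160 exon bases with Lockd on the opposite strand, was at 0.768 to 0.932 of the level of Lockd in the 5 groups. Its reads and those of Lockd can therefore not be told apart.

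Members linked to growth and stress signals were few. Pvt1, next to the oncogene Myc, was at 27.8, 30.5 and 22.9 CPM on TDEC day 2 and 54.6, 52.9 and 54.2 CPM on TDEC day 5 (1.04, SE 0.10, adjusted p = 3.2e-06), a change of 0.94 without replicate 3 of TDEC day 2 and 0.99 with plain library totals. Myc was at 85.7 and 116 CPM (0.48). Trp53cor1 (lincRNA-p21), a p53 target next to Cdkn1a, was at 1.78, 1.98 and 1.24 CPM and then at 4.87, 4.30 and 5.22 CPM (1.56, SE 0.25, adjusted p = 2.2e-04). Cdkn1a, the gene of p21, was at 25.7 and 207 CPM (3.06). In 005 Pvt1 and Myc were at 38.4 and 216 CPM. Against 005, TDEC day 5 was higher in Pvt1 (0.62, adjusted p = 1.7e-05) and lower in Myc (-0.78, adjusted p = 2.1e-07). Trp53cor1 and Cdkn1a were at 2.63 and 33.25 CPM in 005. Their changes from 005 to TDEC day 5 were 0.9987 (adjusted p = 0.0034, not called) and 2.77 (adjusted p = 2.1e-09). On the list of 10 p53, stress and MYC linked genes 5 were tested, and between the 2 days 4 were higher (also Gas5 and Mir22hg) and 1 lower (Ptprv), with a median of 1.53. Over all genes 11.1% were higher and 9.35% lower, with a median of 0.00. 1810058I24Rik, listed as non-coding but reported to encode a small mitochondrial peptide, was at 52.6 ± 3.18, 77.4 ± 4.87, 60.8 ± 1.70, 58.9 ± 5.69 and 47.3 ± 0.952 CPM in the 5 groups (n = 3 each), and was called in none of the 5 comparisons.

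Several lincRNAs changed strongly between 005, TDEC day 2 and TDEC day 5. F630040K05Rik (chr17:45734506-45788594, plus strand) was at 1.54, 1.26 and 1.25 CPM in 005, 9.77, 10.04 and 5.89 CPM on TDEC day 2 and 20.8, 19.4 and 15.1 CPM on TDEC day 5. Its rise of 3.89 over 005 (SE 0.20, adjusted p = 5.1e-09) was the largest among the tested members without an opposite-strand coding exon, and its groups were apart at each step. The step between the 2 days was 1.15, and 0.94 without replicate 3 of TDEC day 2. It had no count in MBMECs, where TDEC day 5 was at least 298-fold higher. The coding gene 1600014C23Rik, 662 bases away on the opposite strand, rose as well from 0.259 CPM in 005 to 3.06 CPM on TDEC day 5 (3.64, adjusted p = 6.4e-06). It was already at 3.12 CPM on TDEC day 2, with a change of 0.02 between the 2 days (adjusted p = 0.96).

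RP24-286J21.7 (Gm42047 in M21, chr8:121833247-121841178, plus strand) was at 198, 199 and 210 CPM in 005, 164, 163 and 124 CPM on TDEC day 2 and 11.1, 13.7 and 10.9 CPM on TDEC day 5. It fell by 3.95 from 005 to TDEC day 5 (SE 0.09, adjusted p = 7.5e-12), nearly all of it between the 2 days (-3.60). Gm22, named Zfp469 but listed as lincRNA in M21 and like RP24-286J21.7 inside the span of the predicted coding gene Gm20388 of the same strand, fell earlier, from 18.9, 17.9 and 27.0 CPM in 005 to 4.50, 3.81 and 6.39 CPM on TDEC day 2 (-2.05, SE 0.22, adjusted p = 3.8e-05). Neither had a count in MBMECs. A930003O13Rik was at 16.7, 17 and 16.8 CPM in 005 and 1.51, 2.03 and 1.61 CPM on TDEC day 5 (-3.16, adjusted p = 6.8e-09), and Lhfpl3 beneath 8.54% of its exons went from 65.4 to 6.04 CPM. Among overlapping members, A930024N18Rik and the Notch ligand gene Dll1 fell from 14 and 59.1 CPM in 005 to 1.54 and 4.76 CPM on TDEC day 5, and Gm26625 and Ezh2, a histone methyltransferase, from 17.4 and 173 CPM to 4.26 and 40.0 CPM. Gm29233 and Thbs1, an inhibitor of angiogenesis, rose from 2.31 and 42.7 CPM to 10.6 and 179 CPM.

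Of the remaining abundant or strongly changed members most lay on coding exons as well. Gm28592, with 98.1% of its exon bases on Phlda1, a gene of the early response to growth signals, was at 171, 179 and 215 CPM in 005, 51.1, 50.4 and 38.2 CPM on TDEC day 2 and 84.4, 88.5 and 78.8 CPM on TDEC day 5. Its fall to TDEC day 2 was 1.95 (SE 0.12, adjusted p = 6.5e-07), and Phlda1 went from 304 to 73.7 CPM. The fall to TDEC day 5 (-1.03) was -0.94 without replicate 3 of 005. Gm26658, on Syt4, a vesicle protein gene, was at 2.93, 2.59 and 3.04 CPM in 005 and 12.5, 11.6 and 12.9 CPM on TDEC day 5 (2.24, adjusted p = 1.0e-07), and Syt4 at 10.8 and 53 CPM. C030034L19Rik, on Zfp704, was at 47.3, 46.1 and 28.8 CPM in 005 and 6.03, 6.58 and 6.74 CPM on TDEC day 5 (-2.53, adjusted p = 2.0e-07), and it had no count in MBMECs, at least 105-fold below.

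Gm26816 and Gm26840, on Cog4 and Vwa1, rose from 005 to TDEC day 2 by 1.30 and 1.49. The rise of Gm26840 from 005 to TDEC day 5 (1.02) was 0.86 without replicate 2 of 005, 0.98 and 0.97 without replicates 1 and 3 of TDEC day 5 and 0.89 with plain library totals. Ino80dos, on Ndufs1 of respiratory complex I, was at 44.7, 41.6 and 45.3 CPM on TDEC day 2 and 18.3, 21.8 and 17.5 CPM on TDEC day 5 (-1.14, adjusted p = 2.1e-06).

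Without a coding exon beneath them, Cep83os was at 10.9 CPM on TDEC day 2 and 4.53 CPM on TDEC day 5 (-1.21, adjusted p = 8.7e-05), and Gpr137b-ps, named as a pseudogene of Gpr137b, was at 5.58 and 11.5 CPM (1.09, and 0.96 without replicate 2 of TDEC day 2). Reads of Gpr137b-ps may be shared with the gene it copies. The 6 members Gm17275, Gm17638, Gm26518, Gm26582, Gm26735 and 1700020I14Rik reached 100 CPM and were called in none of the 5 comparisons. Gm17275 and Gm26735, on the histone gene H3f3a and the transcription factor gene Sox4, were at 502 and 390 CPM in 005 and 238 and 188 CPM on TDEC day 5 (-0.95 and -0.92).

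A total of 30 members reached 5 CPM in 005 or TDECs but stayed under 0.1 CPM in MBMECs, of which 21 did not lie on a coding exon, 8 lay on an exon of the opposite strand and 1 (A830039N20Rik) was not in M21. Levels chose this class, and it is a description. Besides Gm3764, C130071C03Rik, RP24-286J21.7, Gm35040 and F630040K05Rik it held Pantr1 (chr1:42590782-42694842, minus strand), a lincRNA of neural progenitors that begins 926 bases from Pou3f3, a gene for a neural transcription factor. Pantr1 was at 84.0, 81.9 and 78.7 CPM in 005, 53.3, 54.0 and 53.2 CPM on TDEC day 5 and 32.0, 34.2 and 33.6 CPM with sertraline, without a count in MBMECs (at least 869-fold below TDEC day 5). Pou3f3 was at 529, 420 and 352 CPM in these groups and also had no count in MBMECs. Gm26883, which lay on Tshz2, was at 59.7 CPM on TDEC day 5 and at 0 in MBMECs, as was Tshz2. On the list of 14 neural and glial RNAs 6 were tested against MBMECs, where 5 were higher on TDEC day 5 and 1, Peg13, was lower. Of all genes tested 28.1% were called higher and 20.8% lower in that comparison. On TDEC day 5, 4 of 9 were lower than in 005 with a median of -0.48 (Miat, Lhx1os, Dlx6os1 and Six3os1). Over all genes 13.1% were higher and 10.4% lower than in 005.

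By a looser limit for low levels, 19 members reached 5 CPM in MBMECs and stayed under 1 CPM elsewhere, 13 of them without an overlap with a coding exon. Levels chose this class too, and the share of all genes with either pattern was not counted. Gm13652 (chr2:75124871-75137798, minus strand), whose nearest coding gene lies 246440 bases away, was at 37.3, 45.6 and 39.7 CPM in MBMECs and had no count on TDEC day 5 (at least 490-fold). Gm44226 and 4833403J16Rik, which overlap each other on opposite strands, were at 17.1 and 13.6 CPM in MBMECs beside Gimap5 at 55.4 CPM, and all 3 had no count on TDEC day 5. D5Ertd615e was at 23.9, 22.5 and 22 CPM in MBMECs and 0.354, 0.244 and 0.401 CPM on TDEC day 5 (-6.12, SE 0.21, adjusted p = 5.1e-21). D5Ertd605e, outside this class at 1.25 CPM on TDEC day 2, was at 23.9, 20.2 and 24.5 CPM in MBMECs and 0.620, 0.406 and 0.321 CPM on TDEC day 5 (-5.72, SE 0.21). Chosen after their values were seen, AW112010, an interferon-induced RNA, was at 5.26 CPM in MBMECs and had no count on TDEC day 5, and Haglr, next to Hoxd3 and also outside this class, was at 6.38, 5.12 and 5.76 CPM against 1.42, 1.38 and 0.963 CPM. Gm26825 (chr5:5781530-5783636, plus strand) was abundant everywhere and highest in MBMECs, at 1081, 1098 and 1061 CPM against 337, 301 and 321 CPM on TDEC day 5 (-1.82, SE 0.05, adjusted p = 3.6e-24). Exons of Gm15459 lie on its opposite strand.

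With sertraline 10 members were called (4.42%, given above beside 5.08% of all genes and 2.94% of genes at the same level). Those lower were Malat1, Gm35040, Mir9-3hg and Miat, given above, and 5 more that were named after their values were seen. Gm26593 was at 1.95, 2.03 and 1.28 CPM on TDEC day 5 and 0.590, 0.806 and 0.369 CPM with sertraline (-1.63, adjusted p = 0.0030). Gm43660 (-1.23), Gm26964 (-1.12), Haglr (-1.09) and Gm27042 (-1.08) were at 1.25 to 6.00 CPM on TDEC day 5, and their adjusted p lay between 4.7e-04 and 0.029. The only rise was that of Gm20045, from 1.6, 1.06 and 1.85 CPM to 4.86, 2.57 and 5.16 CPM (1.41, SE 0.30, adjusted p = 0.0020). None of the 10 overlapped between the groups, but neither did 101 of all 246 members (41.1%) in this comparison. Of the 10, only Haglr lay on a coding exon, by 0.695% of its bases.

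Gm42418 and Gm26917 stood next to each other on chromosome 17 where RefSeq places the 18S ribosomal RNA pseudogene Rn18s-rs5 (chr17:39846354-39848202). Gm42418 was at 662 to 1691 CPM over all 15 libraries, and its fall from 005 to TDEC day 2 (-1.0) was under 2-fold in 8 alternatives. It was -0.98 with DESeq2-type size factors, -0.99 and -0.87 without replicates 2 and 3 of 005 and -0.95 without replicate 2 of TDEC day 2. Gm26917 was at 74.6, 102 and 78.2 CPM in 005 and 34.8, 27.7 and 28.3 CPM on TDEC day 2 (-1.43, adjusted p = 1.6e-05). Whether these counts come from ribosomal RNA left in the poly(A) libraries was not tested.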

How the data were processed

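RNA was sequenced from 15 libraries, 3 in each of 5 groups, with a directional poly(A) kit. The authors deposited raw read counts per gene. Per the submitters' processing notes, the tools were featureCounts 1.6.3, HISAT2 2.1.0, Trimmomatic 0.38 and bcl2fastq 2.19 (in no stated order) and the genome was mm10. The annotation release, the use of strand and the treatment of reads with several places are not given in the sources used here. TDEC libraries labelled without a day or drug were taken as the study's day 5.

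Members, lists and tests were chosen with earlier results of these data known. Levels are CPM on the column total, given as mean ± SD. Each of 5 comparisons was fitted on its 6 libraries with edgeR 4.0.16 in R 4.3.3 (filterByExpr with a minimum count of 10, TMM, quasi-likelihood test), with Benjamini-Hochberg adjustment over all genes tested, and changes are log2 fold changes with their SE and adjusted p. The pipeline was tested on simulated counts. Genes were named if they were among the 8 largest rises or falls of a comparison at 10 CPM or more with groups apart (at most 4 clone names a direction), were on a fixed list, reached 100 CPM, stood next to the limit of 5 CPM, or were the nearest coding gene of a named member, and any other is said to be chosen later. Some named members are not reported here. Exons came from GENCODE M21 and sequences from RefSeq. Chi-square values between replicates used genes with at least 20 counts.

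Replicate numbers were checked for pairing by the correlation of deviations from group means, and no comparison had all pairs above 0.1. Alternatives were other scalings and filters, limits of 3 and 10 CPM, the adjusted p alone, DESeq2 1.42.0, a replicate block, 1 fit over all 15 libraries and leaving out each library. Counting intervals (95%) and floors cover counting error only.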

Additional observations from a re-analysis of the deposited data

How the results depend on the processing

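The counts of members called moved past 1.5-fold mainly when the fold limit was dropped, and the shares of all genes without that limit are given with the counts in the comparison of all members. With the adjusted p alone, 35 were higher and 70 lower on TDEC day 2 than in 005, 71 and 85 on TDEC day 5 than in 005, and 71 and 61 between the 2 days. Against MBMECs 91 were lower, and with sertraline 33 were higher and 51 lower. A limit of 10 CPM left 157 members. Leaving out 1 library at a time gave 243 to 249 members, and 17 to 19 higher and 20 to 23 lower for TDEC day 2 against 005, 27 to 32 and 33 to 36 for TDEC day 5 against 005, 29 to 38 and 19 to 22 between the 2 days, 69 to 74 and 56 to 58 against MBMECs, and 1 to 3 and 8 to 9 with sertraline. Of 105 called changes of named members, 97 kept the call under each alternative run, 8 lost it at least once and 0 changed sign. Many of these members were named for large changes with groups apart, so this count does not stand for all called members.

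The replicate numbers did not pair the libraries, with correlations of same-numbered libraries between -0.154 and 0.0334. With a replicate block the counts higher and lower were 17 and 22, 31 and 34, 32 and 19, 72 and 56, and 1 and 9. With plain library totals the median of all genes was -0.14 for TDEC day 5 against 005 and 0.15 against MBMECs.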
